A study of Mus musculus with 6 samples.

Results

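The genes described here are 50 genes of mitosis and the spindle, chosen by name out of 38924 genes counted in 6 libraries of sorted mouse T cells. They encode cyclins that act late in the cell cycle, mitotic kinases, parts of the kinetochore, spindle motors, condensin subunits and cytokinesis proteins, and every one of the 50 names has a row in the files. RNA came from 2 groups of CD4+CD25+ T cells, a fraction rich in regulatory T cells, with 3 samples each: cells with surface ILT3 (ILT3+) and cells without it (ILT3-). ILT3, a surface receptor known mainly from antigen-presenting cells, carries inhibitory signals. Both groups came from spleen and lymph nodes (per the series' design, the mesenteric ones) of wild-type, untreated male and female mice aged 10 to 16 weeks, whose strain is not given in the sources used here. After CD25+CD4+ T cells had been enriched on magnetic columns, flow cytometry separated the groups. Neither pooling of mice nor whether the 3 samples of a group came from separate mice is stated, so p-values reflect only how these samples vary, and part of that may be technical. Sample numbers below are those of the labels, and 3 values in a row are samples 1, 2 and 3.

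Most of these genes are transcribed mainly in dividing cells: their mRNA accumulates in G2, when DNA replication is complete, and many of the proteins are degraded as the cell leaves mitosis. Cyclin B with CDK1 starts mitosis, kinetochores attach chromosomes to spindle microtubules, the spindle checkpoint holds back the anaphase-promoting complex until all are attached, and the central spindle then guides division of the cell. Regulatory T cells include resting cells and activated cells that divide in the body without added stimulation. In RNA from a whole sorted sample, more dividing cells and more of an mRNA in each cell cannot be told apart.

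Each library held 9334370 to 13648274 gene reads, and the T cell and regulatory T cell markers Cd3d, Cd3e, Cd3g, Cd4, Il2ra and Foxp3 were present in all 6. Of these 6 markers 0 were called by edgeR, DESeq2 or limma-voom, and 0 had an unadjusted p under 0.05. Foxp3 was at 757, 823 and 1003 CPM in the ILT3+ samples, against 1123, 676 and 787 CPM in the ILT3- samples. Lilrb4, the gene of the sorted receptor in mice, was at 304, 284 and 407 CPM in the ILT3+ samples, against 3.24, 4.32 and 5.81 CPM in the ILT3- samples, which fits the labels of all 6. ILT3+ sample 1 stood apart by its macrophage genes, which summed to 722 CPM in it and to 25.9 and 30.9 CPM in ILT3+ samples 2 and 3.

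Nearly the whole set had more reads in ILT3+ cells. Of the 50 genes, all of which passed the filter on low counts, 47 had a positive log2 fold change and 3 a negative one, and the median was 1.66 against -0.02 over all 13694 genes tested. By edgeR's quasi-likelihood test with Benjamini-Hochberg adjustment over all genes, 12 of the 50 rose, against 1.96% of all genes tested. None of the 50 was called lower by edgeR, where 0.343% of all genes were. An unadjusted p under 0.05 was found for 42 of the 50 and for 1889 of the 13694 genes tested. At that threshold there was 1 lower member, and DESeq2 and limma-voom each called 1 lower, Smc4 in every case. The CPM of all 3 ILT3+ samples lay above all 3 ILT3- samples in 42 of the 50 genes, against 11.4% of all genes tested. At least 2-fold differences upward were found for 38 of the 50 and for 10.4% of all genes tested. Foxm1, Ttk, Nuf2 and Hmmr had too few reads in ILT3- libraries to pass the filter through that group alone. None of these 4 is among the 12. All 4 are counted among the 47 with positive values, the 42 without overlap and the 38 at least 2-fold higher. Those counts thus include genes that could be tested only through the group where they are high. Ttk had under 10 reads in every ILT3- library.

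The replicate number as a block raised the number of calls. With it 23 of the 50 rose (4.18% of all genes tested) and 1 fell, against 2.62% of all genes that fell. The 12 genes called without the block were all among the 23. DESeq2 called 34 higher (5.09% of all genes) and limma-voom 14 (1.99%), and edgeR called 11 on exon reads (1.79%). Without both samples numbered 1 the count was 18 (4.48%). Ratios of same-numbered samples had a median log2 of 1.39, 1.63 and 1.39 over the 50 genes for numbers 1, 2 and 3. The ratio was above 1 in 46, 48 and 48 of the 50 genes, against 50.4%, 50.2% and 47.3% of all genes tested. It was above 1 in every number for 46 of the 50 and for 22.4% of all genes tested. The count of calls moved with single libraries. Leaving out sample 1 of the ILT3+ group gave 4 (1.51% of all genes). Leaving out sample 1 of the ILT3- group gave 8, where 322 genes were called in all, higher or lower. Leaving out any of the other 4 libraries gave 0. Over all genes the same 4 settings gave between 31 and 67 calls, against 316 with all libraries, and the median of the 50 genes stayed between 1.50 and 1.75 in all 6.

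**Figure D1:**
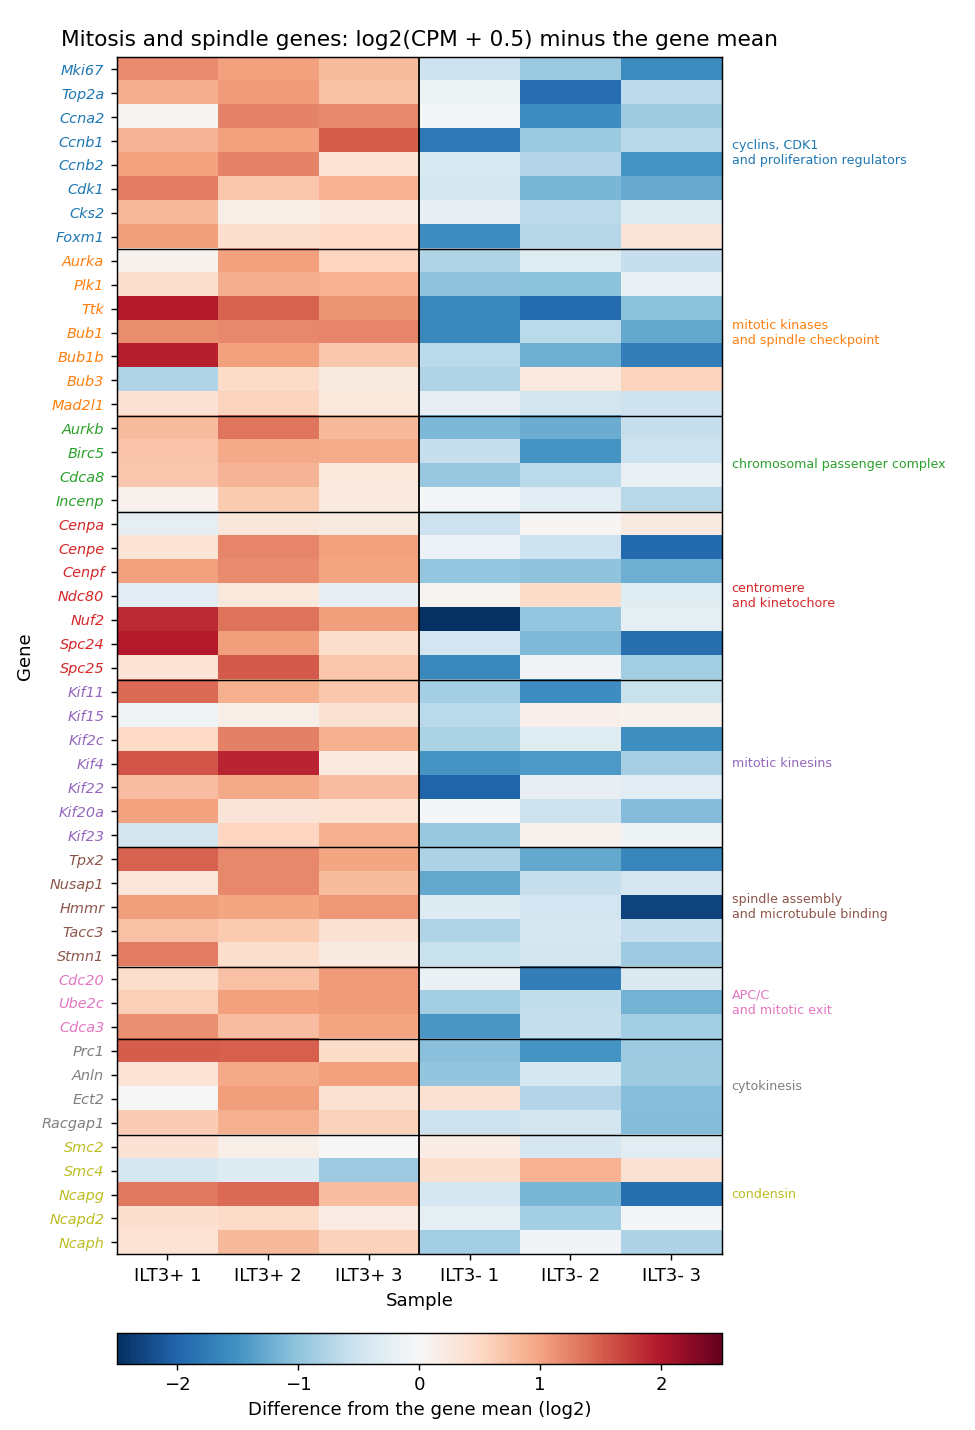
Heat map of the 50 genes (rows, grouped by role) in the 6 samples (columns), showing log2(CPM + 0.5) minus each gene's mean over the samples; colours are saturated beyond 2.5. The ILT3+ columns are red and the ILT3- columns blue for most rows, with Smc4 the other way round and Bub3, Cenpa, Ndc80 and Kif15 with no split between the groups; Bub3 is low in both samples numbered 1.

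Which ILT3+ library was highest differed from gene to gene. ILT3+ sample 1 was the highest of its group for 16 of the 50 genes, sample 2 for 26 and sample 3 for 8. Among ILT3- samples the highest was sample 1 for 19 genes, sample 2 for 16 and sample 3 for 15. Leaving out Smc4, which is described with condensin, the summed level of the other members was 1438, 1578 and 1342 CPM in the ILT3+ samples, against 628, 624 and 672 CPM in the ILT3- samples. The sums did not overlap and averaged 1453 ± 119 and 641 ± 26.5 CPM (SD, n = 3 each). With Smc4 included they were 1981, 2159 and 1729 CPM in the ILT3+ samples and 1587, 1944 and 1596 CPM in the ILT3- samples, which overlap.

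Promoters of these genes are shown because genes of late cell cycle phases are known to share 2 short elements, the cell cycle genes homology region (CHR, TTTGAA), bound by the MuvB core of the DREAM complex in resting cells, and the CCAAT box, bound by NF-Y. RefSeq sequences of 250 bases before to 50 after the start (build GRCm38.p6) were matched for 41 of the 50 genes. Aurkb, Ccna2, Foxm1, Incenp, Kif20a, Smc4, Spc24, Stmn1 and Tpx2 were not matched. Each line gives 120 bases before and 30 bases from the start on, along the gene's strand, with TTTGAA and CCAAT, or their reverse complements TTCAAA and ATTGG, in capitals. The first 6 genes rose in ILT3+ cells, and Bub3, Cenpa and Kif15 had overlapping groups.
Cdk1: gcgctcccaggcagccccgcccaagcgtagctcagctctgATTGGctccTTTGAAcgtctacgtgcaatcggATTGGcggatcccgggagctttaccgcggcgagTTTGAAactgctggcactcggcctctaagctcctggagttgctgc
Kif11: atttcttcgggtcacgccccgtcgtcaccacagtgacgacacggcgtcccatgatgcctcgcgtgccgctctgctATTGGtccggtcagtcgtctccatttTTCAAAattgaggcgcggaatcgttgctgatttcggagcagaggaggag
Ube2c: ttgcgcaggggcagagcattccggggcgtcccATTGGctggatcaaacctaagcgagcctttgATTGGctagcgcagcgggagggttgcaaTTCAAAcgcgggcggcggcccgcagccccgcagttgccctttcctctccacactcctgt
Prc1: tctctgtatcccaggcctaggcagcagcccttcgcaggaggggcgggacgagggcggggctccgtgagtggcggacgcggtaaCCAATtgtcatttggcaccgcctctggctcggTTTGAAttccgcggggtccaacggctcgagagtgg
Racgap1: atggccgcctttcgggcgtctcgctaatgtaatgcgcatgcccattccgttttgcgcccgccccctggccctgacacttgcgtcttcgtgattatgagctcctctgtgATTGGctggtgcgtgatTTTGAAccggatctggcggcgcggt
Cenpf: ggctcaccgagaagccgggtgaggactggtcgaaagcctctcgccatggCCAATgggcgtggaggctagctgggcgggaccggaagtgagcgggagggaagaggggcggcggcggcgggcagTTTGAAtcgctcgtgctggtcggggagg
Bub3: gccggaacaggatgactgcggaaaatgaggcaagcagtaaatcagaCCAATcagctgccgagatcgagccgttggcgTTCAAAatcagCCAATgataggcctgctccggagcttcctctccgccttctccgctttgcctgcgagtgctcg
Cenpa: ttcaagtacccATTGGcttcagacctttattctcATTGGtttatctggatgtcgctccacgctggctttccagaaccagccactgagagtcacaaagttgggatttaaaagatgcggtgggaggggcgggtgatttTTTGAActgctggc
Kif15: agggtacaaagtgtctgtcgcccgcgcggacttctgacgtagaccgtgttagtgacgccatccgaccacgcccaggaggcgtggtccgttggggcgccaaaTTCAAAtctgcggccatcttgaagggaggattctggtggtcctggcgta

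These windows lie at chr10:69352883-69353032 (minus strand), chr19:37376262-37376411 (plus), chr2:164769809-164769958 (plus), chr7:80294331-80294480 (plus), chr15:99651627-99651776 (minus), chr1:189688057-189688206 (minus), chr7:131560250-131560399 (plus), chr5:30666766-30666915 (plus) and chr9:122950961-122951110 (plus). TTTGAA was found on either strand in 31 of the 41 promoters (75.6%) and in 11.9% of the promoters of 9507 genes tested. CCAAT was found in 31 of the 41 as well (75.6%), against 38.9%, and both together in 27 (65.9%), against 4.92%. Matches to TTTGAA clustered at the start: 28 of 40 began between 30 bases before and 40 after it, in 27 genes. CCAAT lay further upstream, with 70 of 74 matches before the start and more than 1 match in 22 genes. The E2F sequence TTTCCCGC or TTTGGCGC was found in 3 of the 41 promoters (7.32%, against 3.16%). The forkhead sequence TAAACA was found in 6 (14.6%, against 8.40%) and the variant TTCGAA in 3 (7.32%, against 2.17%).

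**Figure D2:**
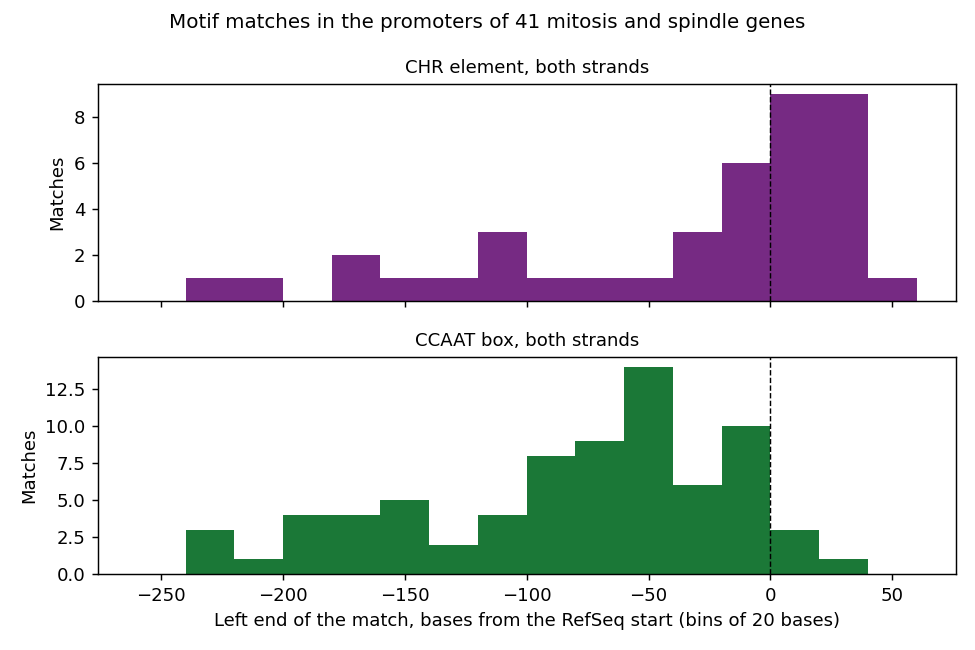
Histograms of the positions of TTTGAA (upper panel, CHR element) and CCAAT (lower panel) in the promoters of 41 of the 50 genes, in bases from the RefSeq start, in bins of 20 bases, with matches on both strands counted. TTTGAA piles up around the start, where 28 of 40 matches lie, and CCAAT upstream of it.

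Presence of TTTGAA did not separate the genes that rose from the others. All 7 genes whose groups overlapped hold TTTGAA in the window, as do 8 of the 10 promoters of genes that rose. Ccnb1 and Bub1 rose without it, though Bub1 holds the variant TTCGAA 14 bases after the start. CCAAT was present in all 10 promoters of genes that rose and in 31 of the 41. Of the 10 genes without CCAAT 0 rose by edgeR or limma-voom, 3 rose with the block and 7 by DESeq2, and 8 had an unadjusted p under 0.05. With CCAAT 10 of 31 rose by edgeR, 12 by limma-voom, 16 with the block and 22 by DESeq2, and 26 had an unadjusted p under 0.05. The difference between these counts was not tested. Over all genes, 1889 of the 13694 tested had an unadjusted p under 0.05. Outside the set, 441 tested genes have both elements in their promoter, and 4 of them were called higher (0.907%), with a median log2 fold change of 0.03. A match of letters is a description and not a binding site.

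Among 8 cyclins, CDK1 and general proliferation genes 3 rose, 5 with the block, and in all 8 the ILT3+ samples lay above the ILT3- samples. Mki67 (chromosome 7, 135689788 to 135716379), which encodes the proliferation marker Ki-67 that coats mitotic chromosomes, was at 73.9, 66.4 and 56.1 CPM in the ILT3+ samples, against 22.3, 16.7 and 10.5 CPM in the ILT3- samples. Every ILT3+ value was far above the highest ILT3- value, with a log2 fold change of 1.99 (adjusted p = 0.0212, SE 0.31). Ccnb1 (chromosome 13, 100778650 to 100786570), the gene of cyclin B1, was at 26.5, 30.1 and 42.2 CPM in the ILT3+ samples, against 3.84, 7.31 and 8.79 CPM in the ILT3- samples. Its lowest ILT3+ sample was well above the ILT3- samples, and the log2 fold change was 2.30 (adjusted p = 0.0305, SE 0.40). Unique placement held for 48.9% of its reads, and on unique reads the call was lost (log2 fold change 2.02, adjusted p = 0.0578). Cdk1 (chromosome 10, 69336635 to 69352938), the kinase that cyclin B activates, was at 32.7, 21.6 and 24.3 CPM in the ILT3+ samples, against 9.49, 5.66 and 5.23 CPM in the ILT3- samples, and its log2 fold change was 1.95 (adjusted p = 0.0420, SE 0.38). Its highest value in both groups was that of sample 1.

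Top2a, the topoisomerase that untangles sister chromatids, was at 123, 138 and 109 CPM in the ILT3+ samples, against 59.8, 17.0 and 41.3 CPM in the ILT3- samples. The groups were apart, but the ILT3- samples differed widely among themselves, and the log2 fold change of 1.65 passed with the block (adjusted p = 0.0991, with the block 0.0447) and in 6 of 19 alternatives in all. Ccnb2, the gene of cyclin B2, was also called with the block, and by DESeq2, at a log2 fold change of 1.80 (adjusted p = 0.101, with the block 0.0273). Ccna2, the gene of cyclin A2, was at 14.1, 33.1 and 32.4 CPM in the ILT3+ samples, against 13.6, 4.40 and 7.27 CPM in the ILT3- samples, so that ILT3+ sample 1 was barely above ILT3- sample 1 (adjusted p = 0.196). Cks2, a small subunit of CDK complexes, had a log2 fold change of 0.84 (adjusted p = 0.234, SE 0.29). Unique placement held for 59.7% of its reads, and on unique gene reads the log2 fold change was 0.39 (adjusted p = 0.727). Foxm1, which encodes the forkhead activator of late cell cycle genes, was the least abundant of the 50 per exon length in ILT3+ cells, with a log2 fold change of 1.33 (adjusted p = 0.503, SE 0.73). Its ILT3- values, 0.481, 1.26 and 3.12 CPM, reached close to the lowest ILT3+ value of 3.38 CPM.

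In 6 of the 7 kinase and spindle checkpoint genes the ILT3+ samples lay above the ILT3- samples, by differing amounts, and in Bub3 the groups overlapped. Of 7 genes 2 rose, 3 with the block. Bub1 (chromosome 2, 127801122 to 127831865), a checkpoint kinase at kinetochores, was at 12.9, 13.2 and 13.3 CPM in the ILT3+ samples, against 1.44, 3.22 and 1.96 CPM in the ILT3- samples. The ILT3+ samples were nearly identical and far above the ILT3- samples, with a log2 fold change of 2.56 (adjusted p = 0.0377, SE 0.47). Bub1b (chromosome 2, 118598211 to 118641591), the gene of the checkpoint protein BubR1, was at 56.9, 30 and 23.3 CPM in the ILT3+ samples, against 8.89, 5.89 and 4.0 CPM in the ILT3- samples. ILT3+ sample 1 was the highest and the groups were apart, at a log2 fold change of 2.56 (adjusted p = 0.0367, SE 0.47). Ttk, the gene of the checkpoint kinase MPS1, had 75, 60 and 45 reads in the ILT3+ samples and 1, 0 and 6 reads in the ILT3- samples. The fitted log2 fold change of 4.66 rests on those 7 ILT3- reads and passed with the block (adjusted p = 0.0637, with the block 0.0476) and in 6 of 19 alternatives in all.

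Plk1, a kinase of mitotic entry and spindle poles, was at 16.4, 23.6 and 22.9 CPM in the ILT3+ samples, against 5.89, 5.81 and 10.8 CPM in the ILT3- samples, apart in all samples but not called (adjusted p = 0.122, with the block 0.0517). Aurka, the centrosome kinase Aurora A, and Mad2l1, the gene of the checkpoint protein MAD2, had log2 fold changes of 1.20 and 0.80 (adjusted p = 0.255 and 0.236). Bub3, a checkpoint protein that binds BUB1 and BubR1, was at 60.8, 144 and 119.98 CPM in the ILT3+ samples, against 61.3, 122 and 152 CPM in the ILT3- samples. Its groups overlapped, with both samples numbered 1 low, and the log2 fold change of -0.05 (adjusted p = 0.981, SE 0.40) changed sign between settings. Unique placement held for 32.7% of its reads, and its gene model lies inside that of Fgfr2 on the other strand, so its level is uncertain. Parts of Ccna2, Cdca8, Kif4, Kif20a, Ncapg, Cdc20, Nusap1, Ube2c and Prc1 also overlap a gene model on the other strand, and the use of strand in counting is not given.

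The chromosomal passenger complex, which corrects wrong attachments of chromosomes, had ILT3+ samples above ILT3- samples in each of its 4 genes, with 1 that rose and 2 with the block. Aurkb (chromosome 11, 69045647 to 69051664), its kinase Aurora B, was at 19.0, 28.1 and 19.4 CPM in the ILT3+ samples, against 4.69, 4.24 and 7.05 CPM in the ILT3- samples. The lowest ILT3+ value was well above the highest ILT3- value, and the log2 fold change was 2.05 (adjusted p = 0.0381, SE 0.38). Birc5, the gene of survivin, was at 17.1, 20.3 and 20.1 CPM in the ILT3+ samples, against 6.73, 3.38 and 6.90 CPM in the ILT3- samples, at a log2 fold change of 1.76 (adjusted p = 0.0769, with the block 0.0481). Cdca8, the gene of borealin, had a log2 fold change of 1.22 (adjusted p = 0.129, SE 0.33). Incenp, the scaffold of the complex, was the most abundant of the 4 in CPM and the least changed, at 37.6, 54.9 and 41.4 CPM in the ILT3+ samples, against 33.9, 28.6 and 21.3 CPM in the ILT3- samples and a log2 fold change of 0.68 (adjusted p = 0.311, SE 0.27). The lowest ILT3+ value of Incenp was close to the highest ILT3- value.

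Kinetochore genes were uneven even within a single protein complex. Of 7 genes 1 rose, 3 with the block. Cenpf (chromosome 1, 189640599 to 189688086), a large protein of the outer kinetochore, was at 10.1, 11.4 and 9.81 CPM in the ILT3+ samples, against 2.16, 2.12 and 1.74 CPM in the ILT3- samples. Both groups were tight and far apart, at a log2 fold change of 2.38 (adjusted p = 0.0377, SE 0.44). The NDC80 complex, which holds microtubule ends, has 4 subunits, and in 3 of their genes the groups did not overlap. Nuf2 had a log2 fold change of 2.76 (adjusted p = 0.278, SE 1.03), Spc24 of 2.55 (adjusted p = 0.0981, SE 0.63) and Spc25 of 1.77 (adjusted p = 0.212, SE 0.58). Spc24 and Spc25 were called with the block (adjusted p = 0.0156 and 0.0418). Nuf2 had 156, 126 and 102 reads in the ILT3+ samples and 0, 21 and 42 reads in the ILT3- samples. Ndc80 itself, the remaining subunit, was at 10.2, 15.1 and 10.8 CPM in the ILT3+ samples, against 13.2, 17.3 and 10.0 CPM in the ILT3- samples. Its groups overlapped, with a log2 fold change of -0.17 (adjusted p = 0.907, SE 0.37). Cenpa, the centromeric histone H3 variant, also overlapped at 38.7, 55.3 and 52.9 CPM in the ILT3+ samples, against 31.0, 45.9 and 52.6 CPM in the ILT3- samples, with a log2 fold change of 0.18 (adjusted p = 0.851, SE 0.27). The log2 fold change of the motor gene Cenpe was 1.73 (adjusted p = 0.248, SE 0.60).

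**Figure D3:**
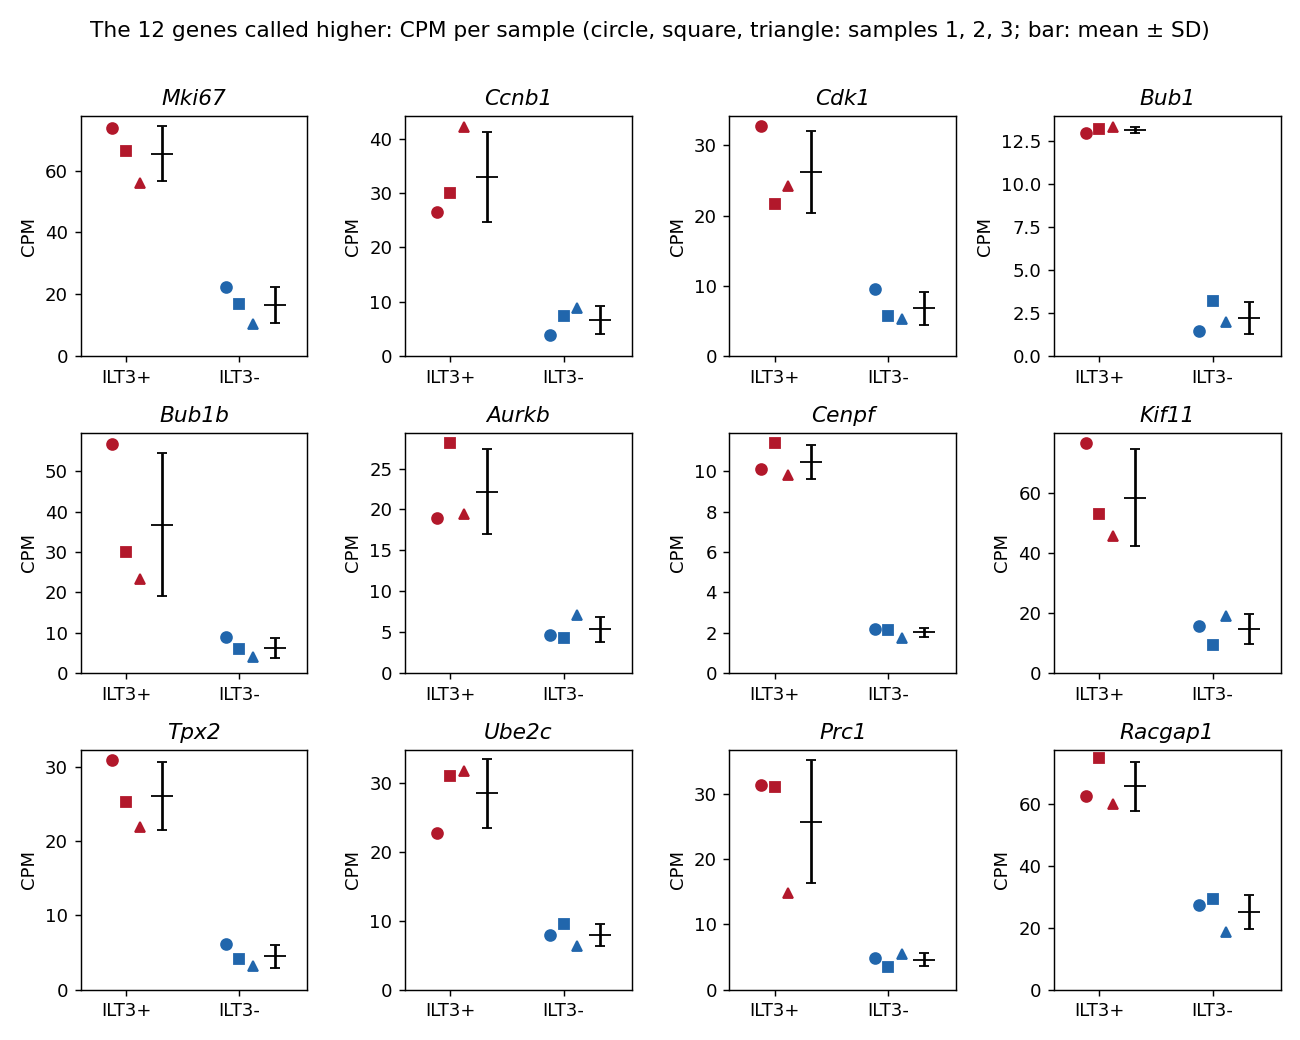
CPM per sample of the 12 genes that rose (circle, square and triangle for samples 1, 2 and 3; bars show the mean ± SD of 3 samples), with ILT3+ on the left of each panel. In each of the 12 panels the lowest ILT3+ point lies above the highest ILT3- point.

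Spindle motors of the kinesin family ranged from no detected difference to several-fold. Of 7 genes 1 rose, with and without the block, and 5 had groups that did not overlap. Kif11 (chromosome 19, 37376403 to 37421859), the motor Eg5 that pushes spindle poles apart, was at 76.6, 52.8 and 45.6 CPM in the ILT3+ samples, against 15.5, 9.35 and 19.0 CPM in the ILT3- samples. ILT3+ values were all well above the highest ILT3- value, with a log2 fold change of 1.99 (adjusted p = 0.0291, SE 0.34); 64.4% of its reads were uniquely placed. Kif4, the chromokinesin, was at 17.5, 22.2 and 6.62 CPM in the ILT3+ samples, against 1.68, 1.73 and 2.91 CPM in the ILT3- samples, with ILT3+ sample 3 lower than the other two and a log2 fold change of 2.86 (adjusted p = 0.0527, with the block 0.0565). Kif2c, the microtubule depolymerase MCAK, had a log2 fold change of 1.88 (adjusted p = 0.154, SE 0.54), and the chromokinesin Kif22 one of 1.50 (adjusted p = 0.221, SE 0.50). Kif20a, a motor of the central spindle, had a log2 fold change of 1.12 (adjusted p = 0.238), with 72.1% of its reads uniquely placed. Kif15, which can stand in for Kif11 in keeping spindles bipolar, was at 14.2, 16.7 and 19.8 CPM in the ILT3+ samples, against 9.25, 16.3 and 16.1 CPM in the ILT3- samples, and Kif23, the motor of the centralspindlin complex, at 12.9, 26.5 and 33.6 CPM in the ILT3+ samples, against 9.13, 19.5 and 16.4 CPM in the ILT3- samples. In both the groups overlapped, at log2 fold changes of 0.28 and 0.70 (adjusted p = 0.819 and 0.583).

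All 5 spindle assembly and microtubule-binding genes had ILT3+ samples above ILT3- samples, and 1 rose, 4 with the block. Tpx2 (chromosome 2, 152847964 to 152895321), which activates Aurora A and nucleates spindle microtubules, was at 31.0, 25.3 and 21.9 CPM in the ILT3+ samples, against 6.13, 4.16 and 3.12 CPM in the ILT3- samples. Its ILT3+ samples lay far above the ILT3- samples, and it had the smallest adjusted p of the 50 genes, with a log2 fold change of 2.55 (adjusted p = 0.0183, SE 0.39). Stmn1, the gene of stathmin, a microtubule-destabilising protein, was at 79.6, 44.1 and 38.1 CPM in the ILT3+ samples, against 21.7, 23.3 and 17.0 CPM in the ILT3- samples, with ILT3+ sample 1 the highest and a log2 fold change of 1.38 (adjusted p = 0.0861, with the block 0.0313). Just 7.93% of its reads were uniquely placed, and on unique gene reads the log2 fold change was 1.22 (adjusted p = 0.458). Tacc3, a microtubule-stabilising protein of spindle fibres, and Nusap1, a spindle protein, had log2 fold changes of 1.20 and 1.61 and were called with the block (adjusted p = 0.0367 and 0.0430; without it 0.0571 and 0.122). Hmmr, a receptor for hyaluronan that also binds spindle microtubules, had a log2 fold change of 2.06 (adjusted p = 0.232, SE 0.70).

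Of 3 genes around the anaphase-promoting complex 1 rose, 2 with the block, and none of the 3 had overlapping groups. Ube2c (chromosome 2, 164769898 to 164778822), the ubiquitin-conjugating enzyme that works with that complex, was at 22.7, 31.0 and 31.7 CPM in the ILT3+ samples, against 7.93, 9.59 and 6.32 CPM in the ILT3- samples. The groups were well apart, at a log2 fold change of 1.84 (adjusted p = 0.0311, SE 0.32). Cdc20, the mitotic activator of the complex, was at 23.5, 28.9 and 36.6 CPM in the ILT3+ samples, against 15.4, 4.87 and 13.3 CPM in the ILT3- samples. ILT3- sample 2 was the lowest and the log2 fold change of 1.41 did not pass without or with the block (adjusted p = 0.208 and 0.0904). Cdca3, a protein that promotes mitotic entry, had a log2 fold change of 2.05 (adjusted p = 0.0618, with the block 0.0476). The core subunits of the complex are expressed in non-dividing cells too. Of 15 tested, 0 were called by edgeR, DESeq2 or limma-voom, and the median log2 fold change was 0.01. An unadjusted p under 0.05 was found for 1 of the 15, against 1889 of the 13694 genes tested. The 1 was Anapc1, at a log2 fold change of 0.62 (adjusted p = 0.287, SE 0.23).

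Of the 4 cytokinesis genes 2 rose, also with the block. Prc1 (chromosome 7, 80294450 to 80316259), which bundles microtubules of the central spindle, was at 31.4, 31.0 and 14.8 CPM in the ILT3+ samples, against 4.93, 3.46 and 5.45 CPM in the ILT3- samples. ILT3+ sample 3 was lower than the other two yet above all ILT3- samples, and the log2 fold change was 2.48 (adjusted p = 0.0289, SE 0.43). Racgap1 (chromosome 15, 99620496 to 99651656), the GTPase-activating subunit of centralspindlin, was at 62.7, 74.9 and 60.1 CPM in the ILT3+ samples, against 27.5, 29.2 and 18.8 CPM in the ILT3- samples, at a log2 fold change of 1.39 (adjusted p = 0.0311, SE 0.24). Its partner in that complex, Kif23, was not called. Anln, the gene of anillin, which organises the contractile ring, had a log2 fold change of 1.71 (adjusted p = 0.138, SE 0.48). Ect2, the exchange factor that activates RhoA at the division plane, had overlapping groups and a log2 fold change of 0.93 (adjusted p = 0.547, SE 0.55).

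**Figure D4:**
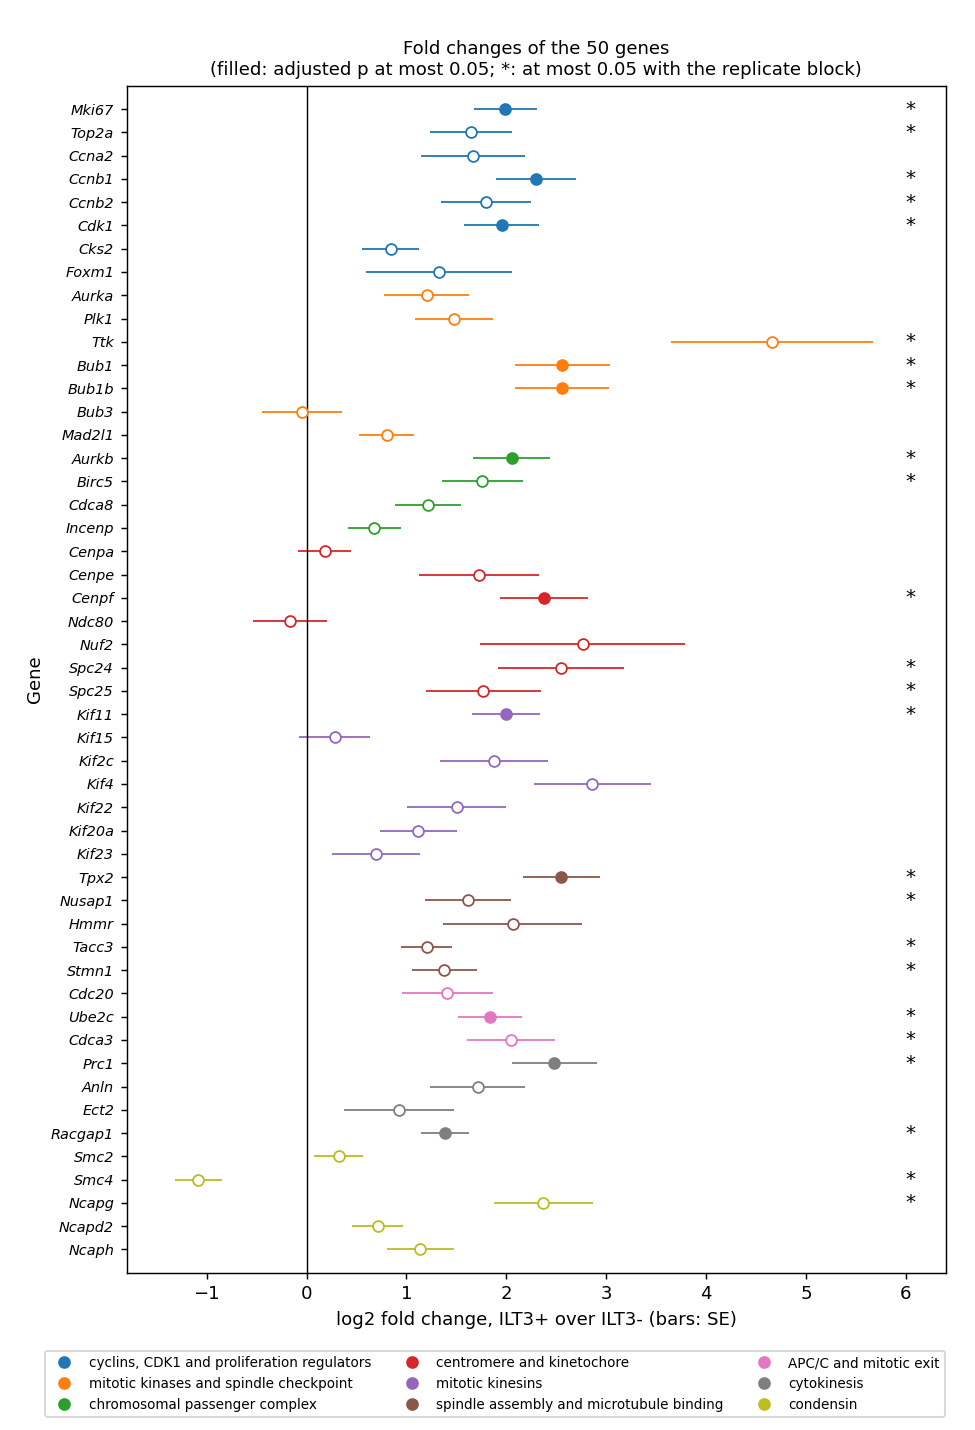
Log2 fold change of ILT3+ over ILT3- (horizontal axis, bars show the SE) for the 50 genes, coloured by role; filled points passed an adjusted p of 0.05 and stars mark those that passed with the replicate block. Points lie right of 0 for 47 genes, and the 3 to the left are Bub3, Ndc80 and Smc4.

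Condensin, the ring complex that compacts chromosomes, differed in direction among its subunits. Smc4 (chromosome 3, 69004738 to 69034623), an ATPase subunit that condensin I and condensin II share, was at 542, 581 and 387 CPM in the ILT3+ samples, against 959, 1319 and 925 CPM in the ILT3- samples. All ILT3+ samples were below all ILT3- samples, which 8.76% of all genes tested also showed. Its log2 fold change was -1.08 (adjusted p = 0.0631, SE 0.23), and with the block it fell (adjusted p = 0.00611). The sign was negative in all 19 alternatives, between -1.19 and -0.90, and the adjusted p was 0.05 or less in 6 of them. Smc4 made up 25.7% of the summed CPM of the 50 genes in ILT3+ cells and 62.5% in ILT3- cells, and it was the most abundant of the 50 per exon length in both. As CPM of exon reads per kilobase of exon, Smc4 was at 69.9 ± 16.7 in ILT3+ cells and 145 ± 44.7 in ILT3- cells (SD, n = 3 each).

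Smc2, the other ATPase of the ring, was at 48.0, 41.2 and 37.6 CPM in the ILT3+ samples, against 42.9, 28.0 and 30.7 CPM in the ILT3- samples, with overlapping groups and a log2 fold change of 0.32 (adjusted p = 0.669, SE 0.25). Per kilobase of exon it was at 7.36 ± 1.17 in ILT3+ cells and 5.34 ± 0.731 in ILT3- cells (SD, n = 3 each), so that Smc4 was many times above Smc2 in both groups. Ncapg, a subunit of condensin I, was at 23.5, 25.2 and 16.0 CPM in the ILT3+ samples, against 6.61, 3.85 and 2.11 CPM in the ILT3- samples, at a log2 fold change of 2.37 (adjusted p = 0.0571, with the block 0.0166). The other condensin I subunits Ncaph and Ncapd2 had log2 fold changes of 1.14 (adjusted p = 0.164, SE 0.34) and 0.71 (adjusted p = 0.259, SE 0.26), without overlap of the groups. By edgeR 0 of the 5 condensin genes were called. An unadjusted p under 0.05 was found for 4 of them and for 1889 of the 13694 genes tested. The block gave 1 higher and 1 lower, DESeq2 2 and 1, and limma-voom 1 and 1.

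**Figure D5:**
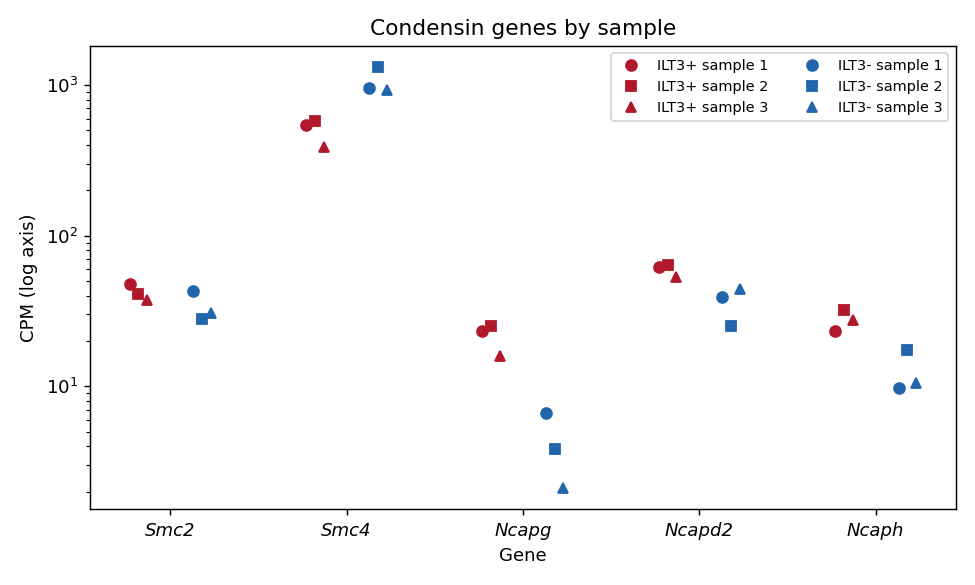
CPM (log axis) of the 5 condensin genes in the 6 samples, ILT3+ in red left of ILT3- in blue. Smc4 lies far above the other genes and is lower in the 3 ILT3+ samples, while Ncapg, Ncapd2 and Ncaph are higher in them.

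Per exon length, the order of the genes put Smc4 and Bub3 first in both groups, and Foxm1 last in ILT3+ cells and Ttk last in ILT3- cells. Values are CPM of exon reads divided by the exon length in kilobases, as mean ± SD of 3 samples. Bub3 was at 48.9 ± 19.4 in ILT3+ cells and 48.2 ± 18.9 in ILT3- cells, and Cks2, the next in both groups, at 36.1 ± 2.26 in ILT3+ cells and 12.7 ± 4.28 in ILT3- cells. The spread of Bub3 reaches the level of Cks2 in ILT3+ cells, so those neighbours are not apart. Just 32.7% of the reads of Bub3 and 59.7% of those of Cks2 were uniquely placed, which leaves both levels uncertain. Mki67 was at 6.24 ± 0.968 in ILT3+ cells and 1.56 ± 0.608 in ILT3- cells and Cenpf at 0.833 ± 0.0544 in ILT3+ cells and 0.170 ± 0.0262 in ILT3- cells. The means were higher in ILT3+ cells for 48 of the 50 genes on this scale, the exceptions being Smc4 and Ndc80.

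Reads in introns, which come mostly from unspliced RNA, were a smaller share of these genes' reads in ILT3+ cells. Leaving out Smc4, introns held 9.05%, 10.7% and 11.6% of the members' reads in the ILT3+ samples, against 16.7%, 18.1% and 15% in the ILT3- samples. The 2 groups did not overlap. Over all genes the share was 25.5%, 24.0% and 25.4% in the ILT3+ samples and 28.3%, 27.5% and 25.0% in the ILT3- samples, which overlap. The share was lower in ILT3+ cells in 37 of the 50 genes, with the reads of a group pooled. The same count over all genes was not made, so the 37 cannot be read as particular to these genes.

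Further mitotic genes outside the 50 mostly had positive values too. A list of 78 such genes, of which 77 were tested, had 69 positive and 8 negative log2 fold changes and a median of 0.86. Over all genes tested 48.0% were positive. From this list 2 genes rose, 6 with the block, where 1.96% and 4.18% of all genes tested rose. The count of 2 is near the share over all genes. DESeq2 called 16 higher (5.09% of all genes) and limma-voom 1 (1.99%). In 34 of the 77 all ILT3+ samples lay above all ILT3- samples, against 11.4% of all genes tested. The reverse held for 2 of the 77, against 8.76%. Shcbp1, a midbody protein, was at 12.4, 11.6 and 19.2 CPM in the ILT3+ samples, against 0.601, 0.707 and 0.727 CPM in the ILT3- samples, at a log2 fold change of 4.38 (adjusted p = 0.00783, SE 0.50). Knl1, listed under its older name Casc5 and the docking platform of BUB1 at kinetochores, was at 18.9, 9.65 and 17.2 CPM in the ILT3+ samples, against 3.12, 1.96 and 3.34 CPM in the ILT3- samples, at a log2 fold change of 2.44 (adjusted p = 0.0428, SE 0.47). Kif18b and Troap, at log2 fold changes of 3.38 and 3.44, were called with the block (adjusted p = 0.0355 and 0.0453; without it 0.0738 and 0.0775). The 35 genes of a DNA replication and S phase list had a median of 0.49. Of them 1 rose, which is also near the share over all genes, and 7 rose with the block (4.18% of all genes tested). DESeq2 called 5 higher (5.09% of all genes) and limma-voom 1 (1.99%). In 12 of the 35 all ILT3+ samples lay above all ILT3- samples, against 11.4% of all genes tested. The 1 called by edgeR without the block was Rrm2, a ribonucleotide reductase subunit, with a log2 fold change of 1.85 (adjusted p = 0.0127, SE 0.25). Rrm2 was at 84.1, 59.8 and 56.9 CPM in the ILT3+ samples, against 17.1, 21.5 and 16.9 CPM in the ILT3- samples. These medians were not compared by a test.

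In each of 4 further lists of cell cycle genes, cohesin among them, edgeR without the block gave 0 calls. Counts below at an unadjusted p under 0.05 stand beside 1889 of the 13694 genes tested. Among 12 G1 cyclins and kinases 0 were called by edgeR (3 at an unadjusted p under 0.05, 1 lower by DESeq2, 0 by limma-voom), and with the block Ccnd3, the gene of cyclin D3, fell, at 351, 264 and 279 CPM in the ILT3+ samples, against 494, 427 and 464 CPM in the ILT3- samples (log2 fold change -0.63, adjusted p = 0.154, with the block 0.0203). Cdk6, a kinase that D cyclins activate, had a log2 fold change of 1.02 (adjusted p = 0.179, SE 0.31). Among 8 tested CDK inhibitors and pocket proteins 0 were called by edgeR, DESeq2 or limma-voom, 2 at an unadjusted p under 0.05. Those were Rbl2, the gene of the pocket protein p130 of the DREAM complex, at a log2 fold change of 0.85 (adjusted p = 0.195, SE 0.27), and Cdkn2c, the gene of the inhibitor p18, at a log2 fold change of 1.48 (adjusted p = 0.234, SE 0.51). Of 13 genes of the DREAM and MuvB complexes and their partners 0 were called by edgeR or limma-voom, 1 by DESeq2 and 1 at an unadjusted p under 0.05. The smallest p was that of Mybl2, the gene of B-MYB, at a log2 fold change of 1.83 (adjusted p = 0.151, SE 0.53). Of 10 cohesin genes 0 were called by edgeR, DESeq2 or limma-voom, 1 at an unadjusted p under 0.05, with 8 negative values and a median of -0.17. Mau2, a subunit of the cohesin loader, had the smallest p, at a log2 fold change of -0.74 (adjusted p = 0.173, SE 0.22).

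Markers of other cell types moved with the groups in part. Their counts at an unadjusted p under 0.05 stand beside 1889 of the 13694 genes tested. The summed dendritic cell list, of which 6 of 10 genes were tested and 3 rose (Batf3, Ccl22 and H2-Aa), was at 524, 258 and 243 CPM in the ILT3+ samples and 20.1, 21.9 and 23.0 CPM in the ILT3- samples; Clec9a had no reads in 5 libraries and 0.0727 CPM in ILT3- sample 3. The sum of 7 NK and innate lymphoid genes was at 344, 583 and 434 CPM in the ILT3+ samples and 46.6, 48.2 and 46.1 CPM in the ILT3- samples. Of the 7, 4 were tested and all 4 were higher, Kit, Tyrobp and Il1rl1 among them. The others did not pass the filter on low counts. Such a sum alone does not show that NK or innate lymphoid cells were present. The B cell genes, with 7 of 8 tested and 0 called by edgeR, DESeq2 or limma-voom (1 at an unadjusted p under 0.05), summed to 94.8, 44.7 and 38.3 CPM in the ILT3+ samples and 39.9, 25.7 and 22.5 CPM in the ILT3- samples. Whether other cell types were present, and their part in the mitotic genes' values, was not tested. The macrophage and monocyte list, with 6 of 10 tested and 0 called by edgeR, DESeq2 or limma-voom (3 at an unadjusted p under 0.05), summed to 722, 25.9 and 30.9 CPM in the ILT3+ samples and 22.7, 17.1 and 7.99 CPM in the ILT3- samples. ILT3+ sample 1 held most of these reads. Without that library the median log2 fold change of the 50 genes was 1.75, and 4 of them were called higher (1.51% of all genes tested). With all libraries 12 were (1.96%). The part of macrophage RNA in the mitotic genes' values was not tested.

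Cell types that often divide were looked at through their own lists. Erythroid genes summed to 296, 100.3 and 117 CPM in the ILT3+ samples and 99.96, 81.2 and 119.8 CPM in the ILT3- samples; 6 of the 10 were tested and 2 rose, the globin genes Hba-a1 and Hba-a2. With the block and by DESeq2 4 rose, the globin genes Hbb-bs and Hbb-bt with them, and 0 by limma-voom. The 6 had a median log2 fold change of 5.41, and Gata1, an erythroid transcription factor, went the other way at -1.90 (adjusted p = 0.357, with the block 0.0202). How the erythroid sum divides among the 10 genes is not given here, so it cannot be read as erythroid RNA alone. The part of erythroid RNA in the mitotic genes' values was not tested. Of the 5 haematopoietic progenitor genes Elane, Ctsg and Gata2 had no reads in any library, and the sum of the 5 was at most 0.402 CPM in ILT3+ samples and 0.0727 CPM in ILT3- samples. Of 2 tested germinal centre B cell genes 0 were called by edgeR, DESeq2 or limma-voom, 0 at an unadjusted p under 0.05. The list summed to 28.7, 62.5 and 45.9 CPM in the ILT3+ samples and 19.7, 39.0 and 22.8 CPM in the ILT3- samples, nearly all of it S1pr2. Plasma cell genes summed to 234, 434 and 627 CPM in the ILT3+ samples and 224, 421 and 595 CPM in the ILT3- samples, mostly Xbp1 and Irf4, which T cells express too, with 5 of 7 tested and 0 called by edgeR, DESeq2 or limma-voom (2 at an unadjusted p under 0.05). The CD8 T cell pair Cd8a and Cd8b1 summed to 17.4, 13.8 and 17.8 CPM in the ILT3+ samples and 30.8, 11.5 and 17.1 CPM in the ILT3- samples, with 0 called by edgeR, DESeq2 or limma-voom and 0 at an unadjusted p under 0.05.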

How the data were processed

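Total RNA of 3 ILT3+ and 3 ILT3- sorted samples was turned into full-length cDNA with SmartSeq V2 and sequenced from Nextera XT libraries, per the labels' protocols. Per the file headers, the authors deposited for each sample the counts of total and unique reads per gene, with exon reads given separately; these counts are raw and not normalized. The build is GRCm38 per the submitters' processing notes, and the sources used here do not give the aligner, the counter or the use of strand. Amplified reads carry no molecular identifiers, so counts are not independent molecules.

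Total gene reads were tested with edgeR 4.0.16 (R 4.3.3): a filter with a minimum count of 10 and minimum total of 15, TMM scaling, a robust quasi-likelihood test of ILT3+ against ILT3- and Benjamini-Hochberg adjustment over the 13694 genes tested at 0.05. Fold changes are ILT3+ over ILT3-. Wherever genes at an unadjusted p under 0.05 are counted, the count over all genes was 1889 of the 13694 tested. CPM use TMM-scaled library sizes and values are mean ± SD. Alternatives used DESeq2 1.42.0, limma 3.58.1, other scalings, filters and read classes, left-out libraries and the replicate number as a block. The labels number the samples 1 to 3 in both groups without saying what a number marks. Deviations from the group means correlated across genes at 0.40, 0.26 and 0.27 for same-numbered samples, so the pairing rests on the data alone; ILT3+ 3 with ILT3- 2 (0.12) and ILT3+ 2 with ILT3- 3 (0.16) also correlated, which leaves numbers 2 and 3 poorly told apart. All pairs of the 6 libraries, within and between groups, differed by more than counting noise (chi-square over degrees of freedom of 18.3 to 128).

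The 50 genes, their roles and all gene lists were chosen with earlier results of these data known. Values per sample are given for every gene called and for the gene with the smallest p and the one with the highest CPM in each role; of the other lists, called genes and up to 4 by smallest p are named, and genes named beyond this were chosen after their values were seen. Of the list symbols, 234 matched by name and 9 through RefSeq synonyms, and 2 were not matched. Promoters came from RefSeq on GRCm38.p6. Some marker genes of the lists are not reported here by name.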

Additional observations from a re-analysis of the deposited data

How the results depend on the processing

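The median log2 fold change of the 50 genes stayed between 1.50 and 1.80 in 18 alternatives and was 1.04 on intron reads alone, where 33 of the 50 could be tested (an alternative chosen after seeing the data). Calls moved more. Against 316 genes called in all, 12 of the 50 higher and 0 lower, the replicate block gave 932, 23 and 1, DESeq2 gave 951, 34 and 1, leaving out both samples numbered 1 gave 786, 18 and 1 (with the replicate block 1701, 37 and 1), unique exon reads gave 204, 12 and 0, and intron reads alone gave 78, 0 and 0. No filter on low counts and limma-voom also called 1 lower, Smc4 each time. Leaving out each library in turn gave 31 to 322 genes in all, 0 to 8 of the 50 higher and 0 lower. Among single genes, 759 values kept direction and side of the threshold, 88 passed it anew, 74 no longer passed it and 12 changed sign. The sign changed for Bub3 on total exon reads (0.0076), and on intron reads for Cenpa (-0.078), Kif15 (-0.25), Kif22 (-0.027), Kif23 (-0.55), Cdc20 (-0.66) and Smc2 (-1.09). When each library was left out in turn, Bub3 ranged from -0.34 to 0.24, Cenpa from -0.010 to 0.35 and Ndc80 from -0.35 to 0.061. The cause was not tested. With the 250 bases before the start alone, TTTGAA was found in 15 of 41 promoters in place of 31 and both elements in 13 in place of 27. Depth limits the genes of few reads, such as Ttk and Foxm1.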

Other observations

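Genes outside the 50 are given here by the elements in their promoters. Among those that hold TTTGAA without CCAAT in the promoter window, 657 were tested, 20 were called higher (3.04%) and the median log2 fold change was 0.04. With CCAAT and no TTTGAA there were 3225 genes with 42 called higher (1.30%), and with neither 5143 genes with 113 called higher (2.20%). Within the 50, 27 genes had both elements, with 8 called higher and a median log2 fold change of 1.77. The 4 with CCAAT alone had 2 called and a median of 2.01, the 4 with TTTGAA alone a median of 1.00 and the 6 with neither a median of 1.41, and edgeR called 0 of those last 10 (8 at an unadjusted p under 0.05, 7 by DESeq2, 0 by limma-voom). These medians describe the genes and were not compared by a test.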
